A study of Mus musculus with 5 samples.

Results

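The genes described here encode 10 proteins that set the activity of mTOR, the kinase that couples cell growth to nutrients, energy and oxygen. They were chosen by name from the pathway, with earlier results of these data known. Each was read by 1 probe set: Ddit4, which encodes REDD1, and its paralog Ddit4l, the sestrins Sesn1, Sesn2 and Sesn3, Tsc1 and Tsc2, the GTPase Rheb, Mtor, and Rptor. They are 10 of the 23279 genes on the array with a name. All 10 were bright enough to be tested, that is, their mean level over all arrays was at or above the 40th percentile of all genes (a log2 level of 4.44), among 13967 genes in all. Levels are log2 RMA values, the log2 signal of a probe set after background correction and scaling to a common distribution, and differences are knockout minus control.

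The material was whole hearts of mouse embryos at E10.5, given no treatment, with 3 arrays labelled as control and 2 as knockout. The series title names Lrrfip2 and hypoxia in the forming heart as its question. The labels give neither the strain, the deleted part of the gene nor whether controls were wild type or heterozygous, nor how many hearts went into a sample. The p-values therefore measure the spread between these 5 samples. Lrrfip2 itself was at 7.33, 8.07 and 8.08 in the controls and at 6.36 and 6.22 in the knockouts, so its values run with the labels, although a probe set outside the deleted part would check nothing.

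Through its complex with raptor, mTORC1, the kinase promotes protein synthesis and holds back autophagy. Rheb in its GTP-bound form switches the complex on, and the TSC1-TSC2 complex switches Rheb off. REDD1 lowers mTORC1 activity through TSC2, reportedly by freeing it from 14-3-3 proteins, and its gene is a known target of the hypoxia-inducible factors, of ATF4, of p53 and of glucocorticoids. Sestrins inhibit mTORC1 by binding GATOR2, the complex that relays amino acid supply; SESN2 is a leucine sensor and a target of ATF4, NRF2 and p53, while SESN1 is known chiefly as a target of p53 and SESN3 of FOXO factors. These proteins are controlled largely by phosphorylation and binding, which an array does not read.

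The 250 bases before the start site are shown for Ddit4 and Sesn2, which had the highest differences, for the Ddit4 paralog Ddit4l, and for Rheb, which holds the same short motif as Ddit4 without a difference of that size. The sequences are from RefSeq, build GRCm38.p6, on the strand of the gene. Capitals mark every match, on either strand, to the searched motifs.
Ddit4, chr10:59951771-59952020, minus strand: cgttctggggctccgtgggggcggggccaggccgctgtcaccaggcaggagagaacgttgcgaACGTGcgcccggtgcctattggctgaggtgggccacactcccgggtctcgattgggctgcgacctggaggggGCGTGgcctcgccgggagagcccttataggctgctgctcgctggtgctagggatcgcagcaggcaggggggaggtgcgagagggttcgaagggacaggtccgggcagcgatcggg
Sesn2, chr4:132510457-132510706, minus strand: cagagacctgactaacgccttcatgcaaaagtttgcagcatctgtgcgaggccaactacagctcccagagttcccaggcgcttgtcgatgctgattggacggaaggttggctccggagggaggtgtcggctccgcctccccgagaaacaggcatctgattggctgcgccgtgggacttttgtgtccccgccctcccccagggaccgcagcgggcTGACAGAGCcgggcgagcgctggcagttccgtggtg
Ddit4l, chr3:137623422-137623671, plus strand: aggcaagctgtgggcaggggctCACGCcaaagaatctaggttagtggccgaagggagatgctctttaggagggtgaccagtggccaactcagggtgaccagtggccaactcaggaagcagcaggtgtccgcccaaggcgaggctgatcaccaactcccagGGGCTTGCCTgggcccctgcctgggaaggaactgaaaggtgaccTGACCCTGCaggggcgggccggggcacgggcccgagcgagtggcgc
Rheb, chr5:24842362-24842611, minus strand: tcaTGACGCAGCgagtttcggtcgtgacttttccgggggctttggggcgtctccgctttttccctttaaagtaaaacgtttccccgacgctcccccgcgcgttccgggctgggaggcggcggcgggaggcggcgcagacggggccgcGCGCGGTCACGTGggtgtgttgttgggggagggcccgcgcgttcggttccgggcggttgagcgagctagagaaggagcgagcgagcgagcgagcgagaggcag

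Both core forms of the hypoxia response element lie in the Ddit4 window, ACGTG at 187 to 183 bases before the start and GCGTG at 115 to 111. ACGTG occurs in 16.6% of the 32841 windows of this length in the RefSeq table and GCGTG in 28.2%, so each is common. The Rheb window holds ACGTG on both strands inside the E-box CACGTG, a palindrome that the core overlaps and that 6.02% of windows hold, and Rptor holds both core forms. Sesn2 holds neither core form. Its only match is TGACAGAGC, to the antioxidant response element core TGACNNNGC, which is found in 10.2% of windows, in Ddit4l (TGACCCTGC) and, with 2 matches, in Rheb. The C/EBP-ATF response element TGATGNAA (3.45% of windows) and the FOXO site TGTTTAC (3.17%) matched in none of the 11 windows of the 10 genes, Sesn1 having 2 start sites. The p53 half-site (7.13% of windows) matched in Ddit4l and at the second Sesn1 start site. A match is a run of letters, and sites farther from the start were not searched.

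Ddit4 was higher on both knockout arrays than on any control array. Its level was 5.59, 5.31 and 5.15 in control replicates 1, 2 and 3, and 6.69 and 6.83 in knockout replicates 1 and 2. The 2 groups did not overlap, and the knockout arrays lay 0.15 apart while the controls spanned 0.44. The mean was 5.35 ± 0.22 (SD, n = 3) in controls and 6.76 ± 0.10 (SD, n = 2) in knockouts, a log2 difference of 1.40 ± 0.15 (SE), or 2.65-fold. In limma, fitted over all 13967 genes, the unadjusted p was 7.31e-04 and the Benjamini-Hochberg adjusted p was 0.333, above the threshold of 0.05. Only 49 tested genes, 0.351% with Ddit4 counted, had a difference at least as high.

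Ddit4l, whose protein also inhibits mTORC1 and is known from skeletal muscle, had the opposite sign. It was at 4.80, 5.0 and 4.97 in the controls and at 4.62 and 4.71 in the knockouts. Both knockout values lay below all controls, by a narrow margin of less than the control range of 0.20. The difference was -0.26 ± 0.08 (SE), with an unadjusted p of 0.0323 and an adjusted p of 0.523 in limma. The unadjusted p of Ddit4l was 0.19 with array weights, and it was 0.0804 to 0.158 in 4 of the 5 fits without 1 array, all but the fit without control replicate 1 (0.00957). All 5 levels are within a log2 unit of the level under which genes were left out as dim.

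Of the sestrins, Sesn2 was the one with higher levels in the knockouts. It was at 4.49, 4.47 and 4.60 in the controls and at 5.32 and 5.56 in the knockouts. The groups were well apart, with a control range of 0.13 and 0.23 between the knockout arrays. The mean was 4.52 ± 0.07 (SD, n = 3) against 5.44 ± 0.17 (SD, n = 2), a difference of 0.92 ± 0.09 (SE), or 1.89-fold. The unadjusted p was 5.39e-04 and the adjusted p 0.333 in limma. There were 120 tested genes (0.859%) with a difference as high or higher, Sesn2 included. Its control levels are close to the dim level of 4.44, and no scanner background was used to judge them.

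Sesn3 was lower in the knockouts by a small amount. Its levels of 7.62, 7.54 and 7.41 in the controls and 7.29 and 7.40 in the knockouts did not overlap, but control replicate 3 (7.41) and knockout replicate 2 (7.40) were nearly equal. The difference was -0.18 ± 0.08 (SE), with a 95% interval of -0.41 to 0.051. Sesn1 had the same deposited value, 6.35, in all 3 controls and in knockout replicate 1, and was at 6.22 in knockout replicate 2. The interval of the Sesn1 difference, -0.20 to 0.077, rests on exactly tied controls, so it cannot be used to exclude a change. That of Sesn3 excludes a change of the size seen for Sesn2. Exact ties of this kind are frequent in the deposited values, and where they come from was not tested.

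**Figure D1:**
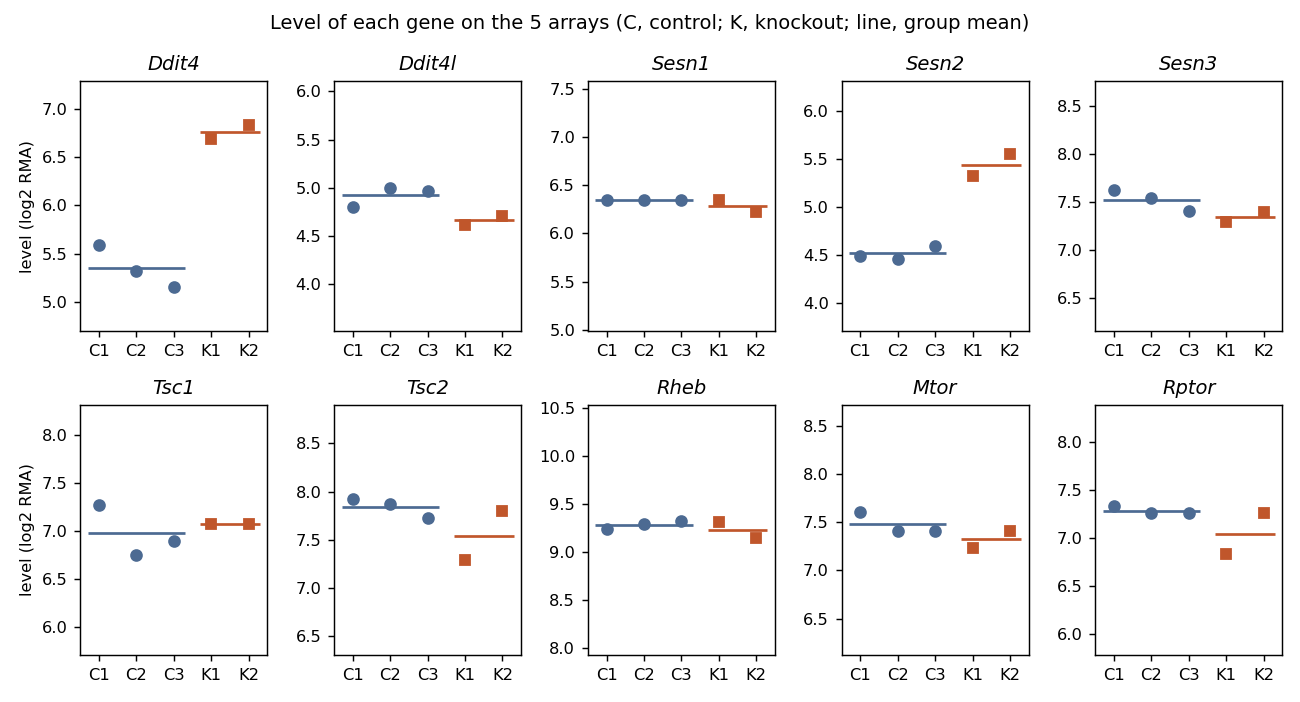
Level of each of the 10 genes (vertical axis, log2 RMA) on control arrays C1 to C3 (circles) and knockout arrays K1 and K2 (squares), with lines at the group means. All panels span the same number of log2 units. Ddit4 (means 5.35 and 6.76) and Sesn2 (4.52 and 5.44) stand apart between groups, and Tsc2 and Rptor are low on K1 alone.

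Whether paralogs differed in their response was tested on the difference of their log2 levels within each array. Ddit4 minus Ddit4l was 0.79, 0.31 and 0.19 in the controls and 2.07 and 2.12 in the knockouts, a shift of 1.67 ± 0.24 (SE). Sesn2 minus Sesn1 shifted by 0.98 ± 0.14, and Sesn2 minus Sesn3 by 1.10 ± 0.13. Because Sesn1 was tied on all 3 controls and knockout replicate 1, the shift against Sesn1 is mostly the Sesn2 difference of 0.92 itself. In each of these 3 comparisons both knockouts lay above all controls. The two-sided exact permutation p was 0.1 for each, and 0.1 after Benjamini-Hochberg adjustment over the 3 comparisons, which is the smallest p that the 10 splits of 5 arrays can give.

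Tsc1 and Tsc2, the 2 large subunits of the complex through which REDD1 acts, showed no common difference. Tsc1 was at 7.27, 6.75 and 6.90 in the controls and at 7.07 in both knockouts. The knockout values lay inside the control range, and the difference was 0.098 with an interval of -0.38 to 0.58. Without control replicate 2 it was -0.012. Tsc2 was at 7.92, 7.87 and 7.73 in the controls, 7.28 in knockout replicate 1 and 7.79 in knockout replicate 2. Only the first knockout array was below the controls, and the difference of -0.30 had an interval of -0.79 to 0.19. Without knockout replicate 1 the Tsc2 difference was -0.047 and without knockout replicate 2 it was -0.56.

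Rheb varied little. Its level was 9.24, 9.29 and 9.32 in the controls and 9.31 and 9.14 in the knockouts. One knockout array was inside the control range and the other below it. The difference was -0.057, its interval was -0.24 to 0.13, and it became 0.028 without knockout replicate 2.

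Mtor and Rptor, the kinase and the scaffold that brings it its substrates, were lower in knockout replicate 1 and level with controls in knockout replicate 2. Mtor was at 7.61, 7.41 and 7.41 in the controls and at 7.23 and 7.41 in the knockouts. Rptor was at 7.33, 7.25 and 7.25 in the controls and at 6.83 and 7.25. In both genes, knockout replicate 2 had exactly the value of control replicates 2 and 3. The differences were -0.16 (interval -0.43 to 0.11) for Mtor and -0.24 (-0.63 to 0.15) for Rptor. Without knockout replicate 2 they were -0.25 and -0.45, and without knockout replicate 1 they were -0.065 and -0.027.

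**Figure D2:**
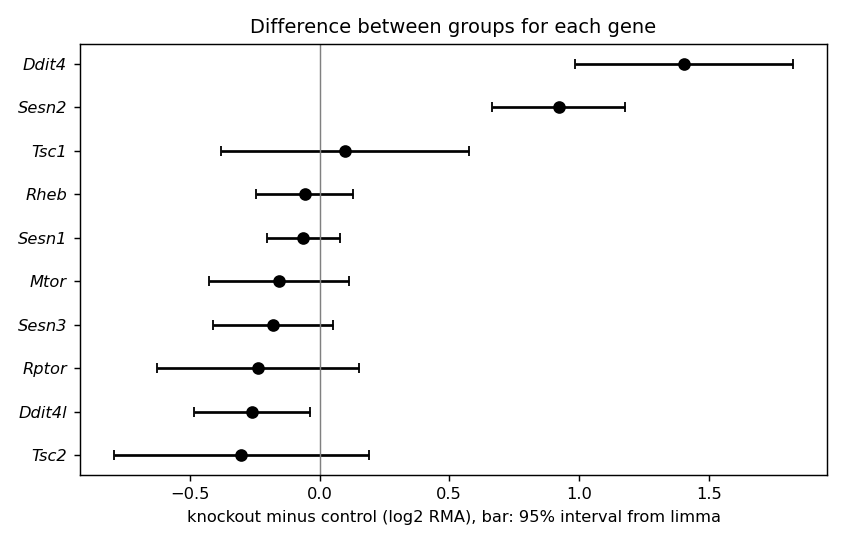
Knockout minus control difference of each gene (horizontal axis, log2 RMA) with its 95% interval from limma, ordered by size. The intervals of Ddit4 (0.98 to 1.83), Sesn2 (0.67 to 1.18) and Ddit4l (-0.49 to -0.036) do not include 0, without adjustment for the number of genes.

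Over the 10 genes, 0 passed the adjusted threshold in limma, as did 0 of all genes tested (0%). At an unadjusted p under 0.05 there were 3 of the 10, against 8.78% of all genes. Those with knockout higher were Ddit4 and Sesn2 (3.29% of all genes) and the one with knockout lower was Ddit4l (5.49%). The groups did not overlap for 4 of the 10, against 21.3% of all genes. Of these, 2 were higher in knockouts (8.18% of all genes) and 2 lower (13.1%), the latter being Ddit4l and Sesn3. In sign, 3 of 10 were higher against 44.8% of all genes. The median difference was -0.11, against -0.015 for all genes. The 10 genes were chosen with earlier results of these data known, so these counts are not an independent comparison.

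The knockout arrays were not alike over these genes. Measured from the control mean, Ddit4 was 1.33 higher on knockout replicate 1 and 1.48 higher on knockout replicate 2, and Sesn2 was 0.80 and 1.04 higher. Tsc2, Rptor and Mtor were at -0.56, -0.45 and -0.25 on knockout replicate 1, and at -0.047, -0.027 and -0.065 on knockout replicate 2. The differences of Ddit4 and Sesn2 thus appear on each array by itself, while those of Tsc2, Rptor and Mtor come mostly from 1 array.

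**Figure D3:**
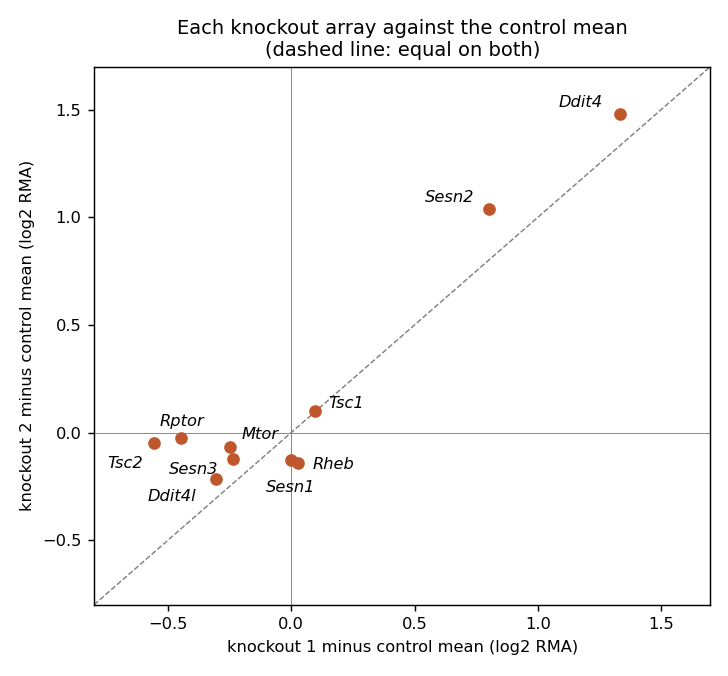
Level of each gene on knockout replicate 1 (horizontal axis) and knockout replicate 2 (vertical axis), each minus the mean of the same 3 controls, in log2 RMA units. Ddit4 and Sesn2 are high on both. Tsc2 (-0.56 and -0.047) and Rptor (-0.45 and -0.027) lie far to the left of the dashed line of equal values.

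Signals of other cells also set the arrays apart. In whole hearts, fewer cells of a type and less RNA per cell cannot be told apart. Cardiomyocyte markers, such as Tnnt2 and Actc1, check the labelled tissue, and they were strong on every array, with a summed level (log2 of the sum of 12 linear signals) of 15.41 to 15.42 in controls and 15.33 to 15.48 in knockouts. Liver and gut endoderm markers, 11 on the array, had a summed level of 8.34 to 8.40 in controls and 8.28 on knockout replicate 1, but 12.82 on knockout replicate 2, and all 10 tested had a higher knockout mean. The 9 markers of macrophages and other blood cells had 8.08 to 8.19 in controls, 9.07 on knockout replicate 1 and 8.02 on knockout replicate 2, with 4 of 5 tested higher. The 7 red cell markers (13.32 to 14.09 in controls, 13.38 and 13.58 in knockouts) had a median difference of -0.47, which was -0.073 without control replicate 3, where 6 of 7 were lower and Alas2 was not (Alas2 here and Ier3 among the immediate early genes were chosen for mention after their values were seen). The 10 endothelial markers had 11.37 to 11.64 against 11.96 and 11.58, with 5 of 9 tested higher. The 10 epicardial and mesenchymal markers had 10.60 to 11.09 in controls and 10.48 and 11.35 in knockouts, with 5 of 10 higher. Immediate early genes, which respond to handling of tissue, had a summed level of 10.84 and 10.48 in knockouts against 9.84 to 10.07 in controls. Most of that gap came from Ier3, at 6.51, 6.65 and 6.37 in controls and 9.51 and 8.50 in knockouts. Without it, a choice made after seeing the data, the sum was 10.11 and 10.05 against 9.68 to 9.96. Of the 10, 8 were higher (44.8% of all genes) and 3 had an unadjusted p under 0.05 (8.78%). RMA levels have no 0, so no marker is at 0 on this scale. The part of these other cells and of the immediate early genes in the results above was not tested.

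Of the transcription factors known to act on these genes, Atf4 and Foxo3 had the smallest p. Atf4, a stress-induced activator, was at 10.43, 10.39 and 10.36 in controls and at 10.71 and 10.74 in knockouts, a difference of 0.33 ± 0.04 (SE). Foxo3 was at 5.92, 5.92 and 5.84 in controls and at 6.30 and 6.47, a difference of 0.49 ± 0.07. Neither group pair overlapped, and the adjusted p in limma was 0.333 and 0.354. Ddit3, encoding the stress factor CHOP, was higher by 1.01 with 1.60 on knockout replicate 1 and 0.42 on knockout replicate 2, and Cebpb by 0.35 with overlap. Of these 11 tested factors 8 had a higher and 3 a lower knockout mean, where 44.8% of all genes were higher, and 2 had an unadjusted p under 0.05, against 8.78% of all genes. Hif1a, the oxygen-labile subunit, chosen for mention after its values were seen, was at -0.12 (interval -0.50 to 0.25).

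Other targets of the same factors were counted without Ddit4 and Sesn2. All 12 hypoxia-inducible factor targets had higher knockout means (median 1.23), 9 with an unadjusted p under 0.05, among them Ndrg1 (2.37), P4ha1 (1.12), Bnip3 (1.26) and Ankrd37 (1.66). All 10 tested ATF4 targets did too (median 1.05, 9 with an unadjusted p under 0.05), among them Chac1 (1.55), Shmt2 (0.95), Trib3 (1.22) and Slc7a5 (0.52). Of 10 tested p53 targets 4 were higher and 6 lower (median -0.16), and the 1 with an unadjusted p under 0.05, Ccng1, was lower by -0.47. Plk2 was at 0.71, Tigar at -0.32 and Zmat3 at -0.21. Measured from the control mean, knockout replicates 1 and 2 were at 1.08 and 0.33 for Plk2. They were at -0.15 and -0.50 for Tigar and at -0.32 and -0.094 for Zmat3. Over all genes tested, 44.8% were higher and 8.78% had an unadjusted p under 0.05 in limma. The p53 targets, at 40% and 10%, were close to these shares. These lists were drawn up with results of these arrays known and are not independent evidence of direction. In all 3 lists, 0 genes passed the adjusted threshold in limma.

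By the root mean square difference between profiles of level minus control mean over the 5 arrays, the 5 tested genes most like Ddit4 were Chst15 (0.16), Aox4 (0.17), Tmem45a (0.19), Hhex (0.19) and Bnip3 (0.20). Those most like Sesn2 were Apoe (0.07), Shmt2 (0.10), Egln1 (0.13), Dgat2 (0.14) and Clec14a (0.14). The measure weighs size as well as shape, so it returns genes with a knockout difference of like size, from 1.21 to 1.37 for the first set and 0.78 to 0.95 for the second. Of the 10, Bnip3 is on the hypoxia target list above and Shmt2 on the ATF4 target list, and the others are on neither. These lists hold 12 and 10 of the 13967 genes tested. Both lists were drawn up with results of these arrays known, so the overlap is not independent evidence.

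In the rest of the pathway, 77 further genes were tested, of which 34 were higher, 41 lower and 2 exactly equal. At an unadjusted p under 0.05 there were 11 (14.3%, against 8.78% of all genes), 4 higher and 7 lower, and 0 passed the adjusted threshold in limma. The groups did not overlap for 21 (27.3%, against 21.3%). The largest difference among the 77 was 0.75, for Prkab2, below the differences of Ddit4 and Sesn2.

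Among outputs of mTORC1, 4 of 17 tested had an unadjusted p under 0.05, against 8.78% of all genes. Eif4ebp1, encoding the translation repressor 4E-BP1 and a known ATF4 target, was at 8.81, 8.79 and 8.79 in controls and at 9.46 and 9.13 in knockouts. Both knockouts lay above the controls, by 0.50 ± 0.11 (SE) in the mean (adjusted p 0.418 in limma). Eif4e, the cap-binding protein that 4E-BP1 holds, was lower by -0.32 ± 0.08, with 4.77, 4.96 and 4.95 in controls and 4.58 and 4.56 in knockouts, also without overlap. The levels of Eif4e are close to the dim level of 4.44. Pdcd4, an inhibitor of the helicase eIF4A that S6 kinase marks for degradation, was higher by 0.42, and the phosphatidate phosphatase gene Lpin1 by 0.52. Over the 17, the median was 0.020, with 11 higher and 6 lower.

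AMP-activated kinase, which senses low energy and inhibits mTORC1 through TSC2 and raptor, and its activator LKB1 were mostly at lower levels. Of 12 genes, 11 were lower, against 55.2% of all genes, with a median of -0.11. The regulatory subunits Prkag2 (-0.30) and Prkag1 (-0.36) had an unadjusted p under 0.05 in limma, 16.7% of the list against 8.78% of all genes. Stk11, encoding LKB1, was at -0.33. Measured from the control mean, knockout replicates 1 and 2 were at -0.54 and -0.18 for Prkag1 and at -0.51 and -0.15 for Stk11. Prkag2 was at -0.23 and -0.38, and the medians of the list were -0.11 and -0.14. The exception was the subunit gene Prkab2, at 7.76, 7.90 and 7.96 in controls and at 9.11 and 8.13 in knockouts, higher by 0.75 with most of it on knockout replicate 1.

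In the amino acid sensing arm, where sestrins act, 4 of 25 tested genes had an unadjusted p under 0.05, against 8.78% of all genes. These were the GATOR2 subunit Sec13 (-0.31), the Ragulator subunit Lamtor4 (-0.30), Castor2 (-0.55), a relative of the arginine sensor CASTOR1, and Bmt2 (0.49), which encodes the S-adenosylmethionine sensor SAMTOR. Of the 25, 13 were higher, 10 lower and 2 equal, with a median of 0.0013. Of 12 growth factor input genes 5 were higher and 7 lower, with 0 at an unadjusted p under 0.05 in limma or at the adjusted threshold. The smallest p there were those of the kinase gene Akt1 (-0.35), the insulin receptor gene Insr (0.30), Pik3ca (0.18) and Irs2 (0.13). Measured from the control mean, knockout replicates 1 and 2 were at -0.52 and -0.18 for Akt1 and at 0.48 and 0.13 for Insr. They were at 0.31 and 0.059 for Pik3ca and at 0.049 and 0.21 for Irs2. Of 11 other subunits and assembly factors of the mTOR complexes, 4 were higher and 7 lower. Only Mapkap1, a subunit of mTORC2, had an unadjusted p under 0.05 in limma, at -0.17. That is 9.09% of the 11, close to the 8.78% of all genes. Telo2 was at -0.28, Akt1s1 at -0.16 and Rictor at 0.23. These 3 differences lay mostly on knockout replicate 1. Measured from the control mean, knockout replicates 1 and 2 were at -0.46 and -0.088 for Telo2 and at -0.26 and -0.051 for Akt1s1. For Rictor they were at 0.45 and 0.013.

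**Figure D4:**
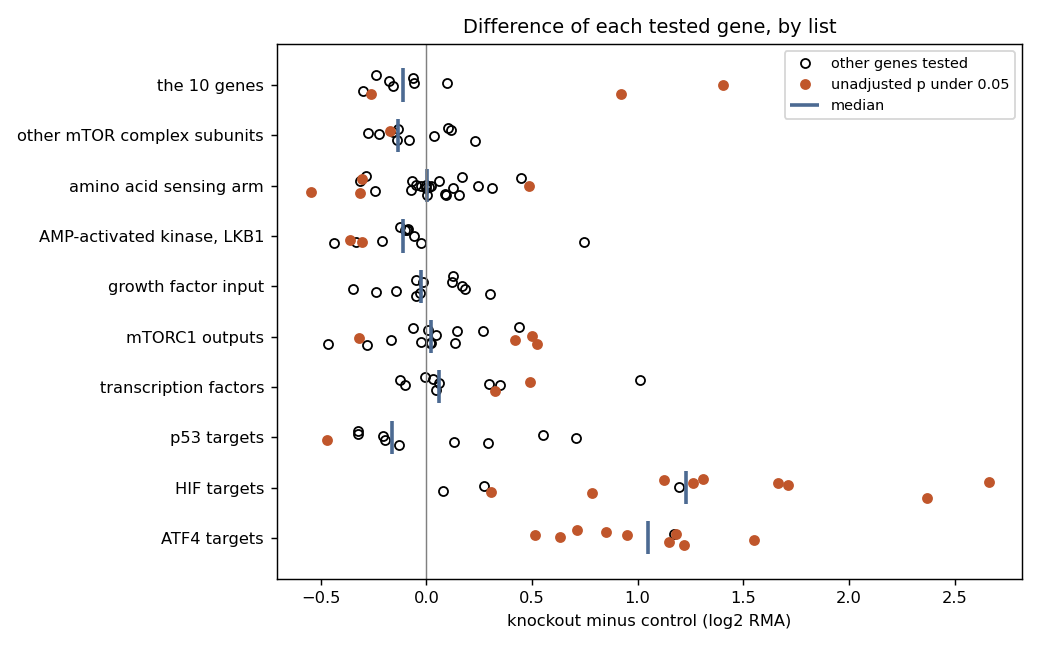
Knockout minus control difference (horizontal axis, log2 RMA) of every tested gene of the pathway lists, 1 list per line, with filled points for an unadjusted p under 0.05 and vertical bars at the medians. In the list of 10 genes, Ddit4 (1.40) and Sesn2 (0.92) lie apart from the other 8, whose differences run from -0.30 to 0.098.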

How the data were processed

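Total RNA of 5 samples of embryonic hearts was hybridised to Affymetrix arrays with the GeneChip WT Plus kit, per the labels. The authors deposited log2 expression levels made with Affymetrix Expression Console and RMA, per the submitters' processing notes; their versions, settings and genome build: not given in the sources used here. No scanner values were used, so no probe was compared with its background; precision is limited by the number of arrays.

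Of 24479 probe sets, 23281 carry 1 gene symbol in the platform annotation, 1198 none and 0 several. A RefSeq table (GRCm38.p6) held the Entrez numbers of 23156 and gave current symbols. The brightest probe set of a gene was kept. Genes under the 40th percentile of mean level were left out, leaving 13967 of 23279. Array medians were 5.07 to 5.11, and correlations between arrays 0.986 to 0.996.

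Knockout was compared with control with limma 3.58.1 in R 4.3.3 (two-sided, functions lmFit and eBayes, Benjamini-Hochberg over all genes tested), with no covariate, and paralogs by exact permutation. Intervals are 95%. The limma fit was tested on simulated data with independent normal noise and so without the exact ties of the deposited values. The paralog permutation was not simulated. The members and lists were chosen with earlier results of these data known. Named are the 10 members, Lrrfip2, up to 4 genes of each pathway list with the smallest p, and the 5 genes closest to Ddit4 and to Sesn2. Marker lists are given as sums. 15 listed genes were not analysed here. Alternatives concerned the dim filter, prior, array weights, renormalization, centring, probe set averaging and each array left out.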

Additional observations from a re-analysis of the deposited data

How the results depend on the processing

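Across the main setting, 7 alternatives and 5 fits without 1 array, Ddit4 differed by 1.31 to 1.52. Sesn2, which the dim filter at the 60th percentile leaves out, differed by 0.80 to 1.04 in the other settings. In the fits with both knockout arrays, the adjusted p in limma was 0.227 to 0.757 for Ddit4 and 0.227 to 0.71 for Sesn2. Sesn2 passed the threshold in 1 fit, without knockout replicate 2 (0.80, adjusted p 0.0441), where 983 of all genes passed and the lone knockout array is assumed to vary like the controls. Leaving out 1 array at a time, 0 to 1 members and 0 to 983 of all genes passed the adjusted threshold (9 without knockout replicate 1). Members at an unadjusted p under 0.05 numbered 2 to 4 (5.53% to 27.3% of all genes) and those without overlap 4 to 7 (27% to 60.4%), both shares being highest without knockout replicate 2. With the dim filter at the 60th percentile, which leaves out Ddit4l and Sesn2, 1 of the 8 members tested had an unadjusted p under 0.05 (10.9% of all genes) and 2 had no overlap (25.6%). Small differences changed sign or became 0 without 1 array: Tsc1 ran from -0.012 (without control replicate 2) to 0.25, Rheb from -0.14 to 0.028 (without knockout replicate 2), and Sesn1 from -0.13 to 0 (without knockout replicate 2). The cause was not tested. The paralog comparisons kept their sign in the settings run, with ranges without 1 array of 1.54 to 1.85 for Ddit4 minus Ddit4l, 0.80 to 1.16 for Sesn2 minus Sesn1 and 1.04 to 1.20 for Sesn2 minus Sesn3. Averaging probe sets changed no member's value, since each has 1. No paired analysis was made. Each sample has its own number in the labels, so these numbers cannot show whether samples of the groups belong together.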
